A study of Mus musculus with 16 samples.

Results

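OCT4, the POU-family transcription factor encoded by Pou5f1, was profiled by ChIP-seq in 2TS22C mouse embryonic stem (ES) cells, and the peaks described here are those that lay at the starts of non-coding genes. A peak was taken when its midpoint was within 1 kb of an annotated transcript start of a lincRNA, antisense, processed_transcript, bidirectional_promoter_lncRNA, sense_intronic, sense_overlapping or miRNA gene of GENCODE M21 and more than 1 kb from every protein-coding transcript start. The rule picked 559 of the 26704 peaks of the merged OCT4 list, or 2.09%. A further 338 peaks were within 1 kb of both kinds of start and were not taken. The remaining peaks served as comparison: 3674 peaks within 1 kb of a protein-coding start, these 338 included, and 22471 peaks elsewhere. Of the peaks elsewhere, 364 lay within 1 kb of a start of a gene of further types. The rule used positions only, and sequence, width and spacing of the peaks were not used to choose them.

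The series holds 16 ChIP-seq libraries in 8 groups of 2 replicates, made to follow the chromatin of ES cells after loss of OCT4 or SOX2. OCT4 was immunoprecipitated in 4 of them, in 2TS22C cells left untreated (SOX2 ON) or given 1 µg/ml doxycycline for 26 h (SOX2 OFF). In 2TS22C cells a Tet-Off promoter drives Sox2, so that doxycycline shuts the gene, and both groups grew in serum with LIF, CHIR99021 and PD184352. The other 12 libraries profiled BRG1 and H3K27ac, the latter also in ZHBTc4 cells, and are not analysed here. The OCT4 list gives the chromosome, start and end of each peak on mm10, with no height and no column per library. OCT4 binding was therefore not compared between SOX2 OFF and SOX2 ON, read depth behind a peak is unknown, and every value below describes 1 merged list without replicates.

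OCT4 binds DNA alone at octamer sites or beside SOX2 at a composite site in which an octamer and a SOX site adjoin, and it is known above all for binding enhancers of ES cells. Long non-coding RNAs (lncRNAs) are transcribed by RNA polymerase II, often from starts that have features of enhancers, and many are restricted to few tissues. A lincRNA gene lies between protein-coding genes, an antisense gene runs opposite to another gene, and a miRNA gene encodes a hairpin from which shorter mature miRNAs are cut. The annotated start of a miRNA gene is the end of that hairpin and not the start of the primary transcript that carries it.

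The 5 peaks with the best match to the composite motif are shown as the clearest examples of that site and not as typical members, since only 47 of the 559 peaks held a match with at most 3 mismatches. The Mir302b peak is added because it lay at a miRNA cluster on the list of pluripotency genes used below. Each sequence is read 5′ to 3′ on the strand of the motif from the mm10 reference, with the composite match in capitals. The full motif reads ATTTGCAT followed directly by AACAATG.
Rmst peak, chr10:92163368-92163422, + strand: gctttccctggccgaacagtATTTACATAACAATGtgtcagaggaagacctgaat
Gm48249 peak, chr10:20286266-20286320, + strand: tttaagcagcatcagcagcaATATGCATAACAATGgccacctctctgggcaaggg
2610300M13Rik peak, chr6:66464626-66464680, - strand: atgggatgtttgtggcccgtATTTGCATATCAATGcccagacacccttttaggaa
Gm44206 peak, chr6:115836536-115836590, + strand: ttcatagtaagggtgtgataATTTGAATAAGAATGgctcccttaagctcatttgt
Platr8 peak, chr2:109913342-109913396, - strand: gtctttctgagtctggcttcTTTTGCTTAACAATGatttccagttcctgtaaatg
Mir302b peak, chr3:127544783-127544837, - strand: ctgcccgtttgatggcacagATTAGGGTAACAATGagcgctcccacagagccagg
The matches in the Rmst, Gm48249 and 2610300M13Rik peaks had 1 mismatch each. Those in the Gm44206 and Platr8 peaks had 2 mismatches, and that in the Mir302b peak had 3.

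A smaller set of the peaks had the look of CpG-rich promoters, and 2 of them are shown on the + strand with ETS (CCGGAAG) or SP (GGGCGGG) letters of either strand in capitals. ETS factors and SP factors are activators that bind many housekeeping promoters.
1700113A16Rik peak, chr3:88177725-88177924: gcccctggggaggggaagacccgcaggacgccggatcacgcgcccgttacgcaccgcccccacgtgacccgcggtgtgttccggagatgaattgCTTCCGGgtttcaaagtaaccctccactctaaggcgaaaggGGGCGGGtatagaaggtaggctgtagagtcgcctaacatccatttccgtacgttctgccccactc
Mirlet7i peak, chr10:122985470-122985669: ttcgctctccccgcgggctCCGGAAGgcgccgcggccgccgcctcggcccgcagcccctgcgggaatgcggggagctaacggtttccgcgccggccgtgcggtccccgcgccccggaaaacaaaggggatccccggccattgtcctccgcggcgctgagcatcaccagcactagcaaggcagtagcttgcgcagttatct
The 1700113A16Rik window held 1 ETS and 1 SP match, and the Mirlet7i window held 1 ETS match. Neither peak had a composite match with at most 3 mismatches.

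The mature miRNAs below belong to hairpins within 1 kb of a peak and are shown because most of them share a seed (bases 2 to 8, in capitals) with another. Sequences are from RefSeq (GRCm38.p6).
mmu-miR-302b-3p: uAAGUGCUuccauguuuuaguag
mmu-miR-302d-3p: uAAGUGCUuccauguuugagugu
mmu-miR-302c-3p: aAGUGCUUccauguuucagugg
mmu-miR-302b-5p: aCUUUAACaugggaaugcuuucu
mmu-miR-302c-5p: gCUUUAACaugggguuaccugc
mmu-miR-302d-5p: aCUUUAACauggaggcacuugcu
mmu-let-7g-5p: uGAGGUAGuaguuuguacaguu
mmu-let-7i-5p: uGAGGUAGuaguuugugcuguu
mmu-miR-32-5p: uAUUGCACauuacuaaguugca
mmu-miR-367-3p: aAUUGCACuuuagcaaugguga
The miR-302b and miR-302d 3p arms share the seed AAGUGCU, which in miR-302c-3p is moved by 1 base to AGUGCUU. The 5p arms of miR-302b, miR-302c and miR-302d share CUUUAAC. The let-7g and let-7i 5p arms share GAGGUAG. The 5p arm of miR-32 and the 3p arm of miR-367 share AUUGCAC although their genes lie on chromosomes 4 and 3.

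Peaks piled up on the starts themselves. The midpoints of 222 peaks (39.7%) lay within 250 bp of the nearest start and those of 367 (65.7%) within 500 bp, with a median distance of 355 bp. In 250 bp bins, 127 peaks fell just upstream of the start and 95 from the start onward, against 43 to 74 in the other bins of the first 1 kb. Beyond it, from 1 to 5 kb on both sides, the 32 bins held 23 to 53 peaks with a median of 39. The mean of the bins on either side of the start was thus 2.82 times the mean of the outer bins. Around protein-coding starts the same ratio was 7.87. Sides were nearly even: 296 peaks (53.0%, 95% Wilson interval 48.8 to 57.1) lay upstream, 261 downstream and 2 at the start. These profiles are descriptions without a test, and all Wilson intervals cover counting error only.

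**Figure D1:**
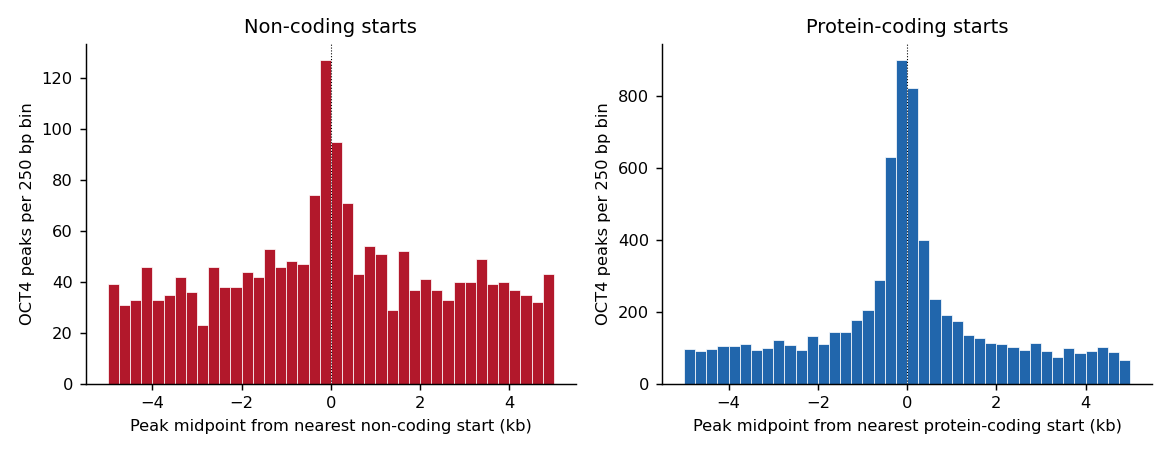
Number of OCT4 peaks per 250 bp bin by the distance (kb) of the midpoint to the nearest non-coding start (left, peaks over 1 kb from protein-coding starts) or protein-coding start (right), upstream to the left of 0. Both profiles are highest beside the start, with 127 peaks in the highest bin on the left and 900 on the right.

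By nearest start, the 559 peaks belonged to 534 genes, of which 24 had 2 or 3 peaks, and 27 peaks had starts of 2 or more of these genes within 1 kb. LincRNA genes took 332 peaks, antisense genes 122, miRNA genes 49 and processed_transcript genes 48. The other types were rare, with 5 sense_intronic, 2 bidirectional_promoter_lncRNA and 1 sense_overlapping peak. Of the peaks, 473 lay at genes that carry only a Gm, Rik or clone name. That share was not counted over all non-coding genes, and such a name does not show whether an RNA was studied. The midpoint of 118 peaks lay in an exon and that of 151 in an intron of the gene itself, while 290 lay outside it. It also lay within a protein-coding gene for 131 peaks (23.4%), a share that was not counted for all peaks or the other classes. Such a position was found for 59.8% of antisense and 5.42% of lincRNA peaks. That contrast follows largely from how these gene types are defined. A RefSeq start lay within 1 kb of 210 peaks (37.6%), and for 15 of these the nearest RefSeq start was protein-coding.

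How often a non-coding gene had a peak at a start was counted over the 9474 of 12352 genes whose starts were all more than 2 kb from protein-coding starts. Of these, 495 had a peak, which is the background share of 5.22%. The share was 5.96% for lincRNA genes (320 of 5367, 95% interval 5.36 to 6.63) and 5.14% for antisense genes (85 of 1653, 4.18 to 6.31). That difference was not significant (odds ratio 1.17, 95% interval 0.915 to 1.50, two-sided Fisher's exact test, p = 0.228). Processed_transcript genes stood at 8.94% (37 of 414, 6.55 to 12.1), miRNA genes at 2.77% (48 of 1733, 2.1 to 3.65) and sense_intronic genes at 1.43% (4 of 280, 0.557 to 3.61). For protein-coding genes, all counted without a limit on the distance to other starts, the share was 16.5% (3626 of 21938). Within lincRNA genes, 5.57% of those with 1 exon and 5.99% of those with 2 or more exons in the longest transcript had a peak.

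Genes with a CpG-rich start had a peak more often than the others. A window of 500 bp was called CpG-rich when its GC content was at least 50% and its ratio of observed to expected CpG at least 0.6. Genes with such a window at a start had a peak in 85 of 388 cases (21.9%, 95% interval 18.1 to 26.3), whereas genes without one had a peak in 410 of 9086 (4.51%, 4.10 to 4.96). For lincRNA genes the shares were 25.0% (50 of 200) and 5.23% (270 of 5167). For antisense genes they were 17.6% (12 of 68) and 4.61% (73 of 1585). No test was planned for these values, and the intervals do not overlap within any of the 3 pairs. A gene counts by any of its starts, so the peak need not lie at the CpG-rich start. The number of starts per gene was not adjusted for, here or in the shares by gene type.

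**Figure D2:**
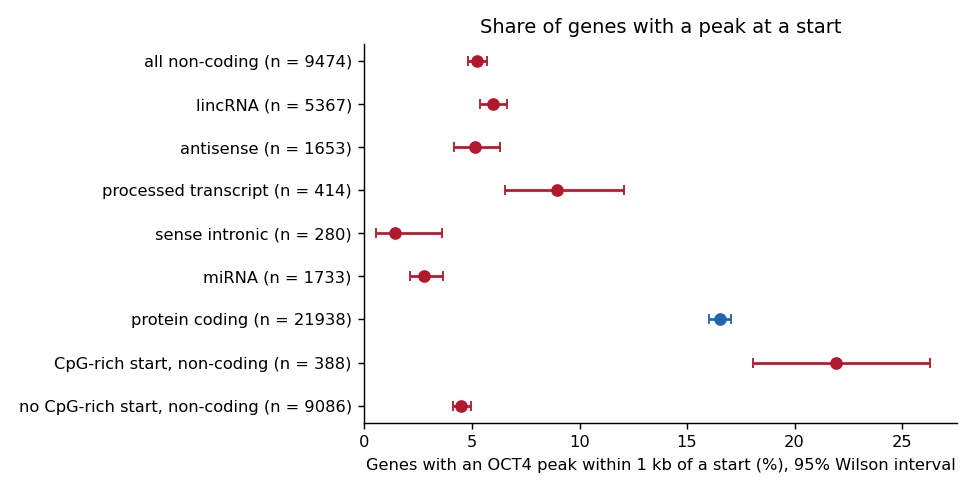
Share of genes (%) with an OCT4 peak midpoint within 1 kb of a start, by gene type and by CpG content of the start, with 95% Wilson intervals (types with at least 100 genes). The non-coding genes with a CpG-rich start lie at 21.9% and those without one at 4.51%. The protein-coding genes (16.5%) were neither split by CpG content nor limited by distance to other starts, so they are not a matched comparison.

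Peaks at non-coding starts were much less often CpG-rich than peaks at protein-coding starts and more often than peaks elsewhere. Of the 559 peaks, 59 (10.6%) were CpG-rich, beside 7.07% of all peaks of the list. The share was 41.3% at protein-coding starts (odds ratio 0.168, 95% interval 0.127 to 0.221, exact adjusted p = 2.03e-50) and 1.39% elsewhere (odds ratio 8.38, 6.26 to 11.2, exact adjusted p = 7.50e-30). Each such p is from a Fisher's exact test, two-sided, and was adjusted by the Benjamini-Hochberg method over the 26 comparisons of shares, of which 12 passed 0.05. The units of these tests are peaks of 1 list rather than separate cultures, and a small p says nothing about the spread between experiments. CpG-rich peaks were closer to starts: 16.2% of the 222 peaks within 250 bp were CpG-rich against 6.82% of the 337 farther away (odds ratio 2.64, 1.52 to 4.60, exact adjusted p = 0.00183). The shares of lincRNA (9.64%) and antisense peaks (10.7%) did not differ significantly (odds ratio 0.894, 0.453 to 1.77, exact adjusted p = 0.769).

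The 59 CpG-rich peaks had a median GC content of 59.2% and a median CpG ratio of 0.741 in the 500 bp window, against 47.8% and 0.271 for the other 500. None of the 59 had a composite match in its central 200 bp, while all 40 such matches fell in the other 500 peaks. With 3 counts over 59 peaks taken as the limit for 0 counts, a share of up to 5.08% is allowed. That is not a Wilson limit. The 59 were selected for GC content, the motif letters are mostly A and T, and this contrast was not adjusted for GC content. The SOX core was found in 11 of the 59 and the octamer in 5. ETS or SP letters were found in 11 of the 59 and in 34 of the other 500. A protein-coding start lay within 5 kb of 16 of the 59, and of 105 of all 559.

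**Figure D3:**
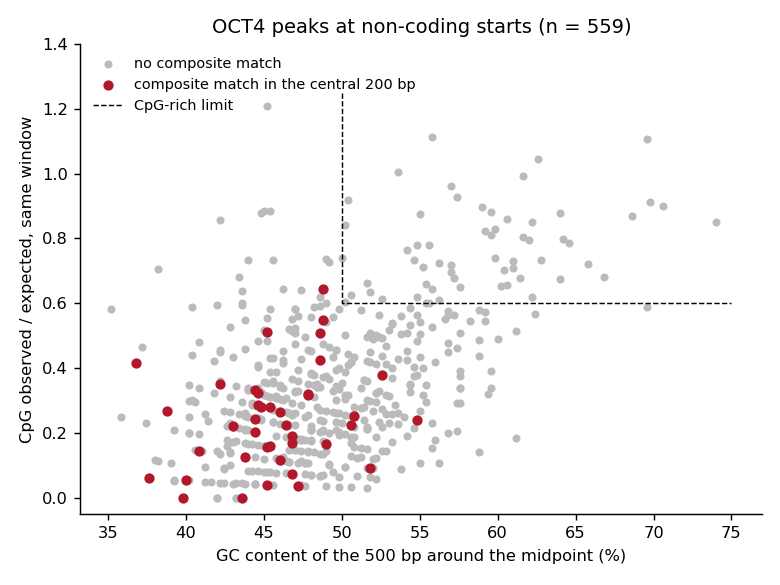
CpG observed over expected against GC content (%) of the 500 bp around each of the 559 midpoints. Dashed lines bound the CpG-rich range, which holds 59 peaks, and the 40 peaks with a composite match in the central 200 bp (red) lie outside it.

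The composite OCT4::SOX2 motif, counted with at most 3 mismatches on either strand of the central 200 bp, was present in 40 of the 559 peaks (7.16%, 95% interval 5.30 to 9.60), against 8.59% of all peaks. In windows of 200 bp placed 5 kb to either side of the same peaks it was present in 10 of 1102 (0.907%), so that the peaks held it far more often than their surroundings (odds ratio 8.42, 4.18 to 17.0, p = 1.12e-11, two-sided Fisher's exact test). The 16 windows that met another peak or unknown bases were left out. The test took all windows as independent, although the flanking windows come from the same loci as the peaks. Flanking windows were not compared for all peaks or the other classes. Peaks at protein-coding starts had a lower share of 4.30% (odds ratio 1.72, 1.2 to 2.46, exact adjusted p = 0.0126), and peaks elsewhere had 9.33% (odds ratio 0.749, 0.541 to 1.04, exact adjusted p = 0.166). The difference from protein-coding starts was no longer significant after adjustment for GC content (odds ratio 1.35) or when whole peaks were searched (odds ratio 1.38, exact adjusted p = 0.121). The composite shares of lincRNA (7.23%) and antisense peaks (6.56%) did not differ significantly (odds ratio 1.11, 0.485 to 2.54, exact adjusted p = 1), nor did those of peaks within 250 bp (7.66%) and farther from the start (6.82%, odds ratio 1.13, 0.590 to 2.17, exact adjusted p = 0.769).

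Searched over their whole width, 47 peaks (8.41%) held a composite match, below the 11.5% of all peaks. The median distance of the match from the midpoint was 44 bp. The fewest mismatches were 1 in 3 peaks, 2 in 9 and 3 in 35. Of the 47 peaks, 30 lay at lincRNA and 8 at antisense genes, 24 were upstream of the start, and in 29 the motif ran on the strand of the gene. Another 131 peaks came within 4 mismatches, 202 within 5 and 179 had 6 or 7.

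The SOX core (CCATTGT or CCTTTGT), the letters that SOX factors prefer, was more frequent at non-coding than at protein-coding starts. It was found in 109 of 559 peaks (19.5%), against 20.5% of all peaks. At protein-coding starts the share was 10.6% (odds ratio 2.05, 1.62 to 2.59, exact adjusted p = 7.91e-08), and with adjustment for GC content the odds ratio was 1.71 and the call held. Elsewhere the share was 22.1%, a difference that was not significant (odds ratio 0.852, 0.690 to 1.05, exact adjusted p = 0.241). The octamer ATTTGCAT, which overlaps the composite motif, was found in 41 peaks (7.33%, with 7.98% of all peaks), and neither the 5.82% at protein-coding starts (exact adjusted p = 0.277) nor the 8.34% elsewhere (exact adjusted p = 0.570) differed significantly. In all, 164 peaks held at least 1 of these 3 motifs in the central 200 bp and 395 (70.7%) held none of them. This combined count was not made for all peaks or the other classes, so it cannot be called particular to the set.

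Among motifs of other factors, ETS and SP letters were more frequent than in peaks elsewhere. ETS letters were in 19 peaks (3.40%, with 1.67% of all peaks), above the 1.18% of peaks elsewhere (odds ratio 2.95, 1.84 to 4.73, exact adjusted p = 0.000270) and not significantly different from the 4.41% at protein-coding starts (odds ratio 0.763, 0.470 to 1.24, exact adjusted p = 0.452). SP letters were in 28 peaks (5.01%, with 3.65% of all peaks), below the 11.1% at protein-coding starts (odds ratio 0.423, 0.286 to 0.628, exact adjusted p = 1.29e-05) and above the 2.41% elsewhere (odds ratio 2.14, 1.45 to 3.16, exact adjusted p = 0.00145). Both SP differences lost significance with adjustment for GC content (odds ratios 0.697 and 1.14), while the ETS difference from peaks elsewhere held (odds ratio 2.11). The letters of ESRRB (TCAAGGTCA), an orphan nuclear receptor of ES cells, were in 5 peaks (0.894%, with 1.66% of all peaks). Those of NFY (CCAAT followed by CA, CG, GA or GG), a CCAAT-box factor, were in 41 (7.33%, with 6.56% of all peaks). Neither motif differed significantly from the other classes (exact adjusted p from 0.241 to 0.769).

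**Figure D4:**
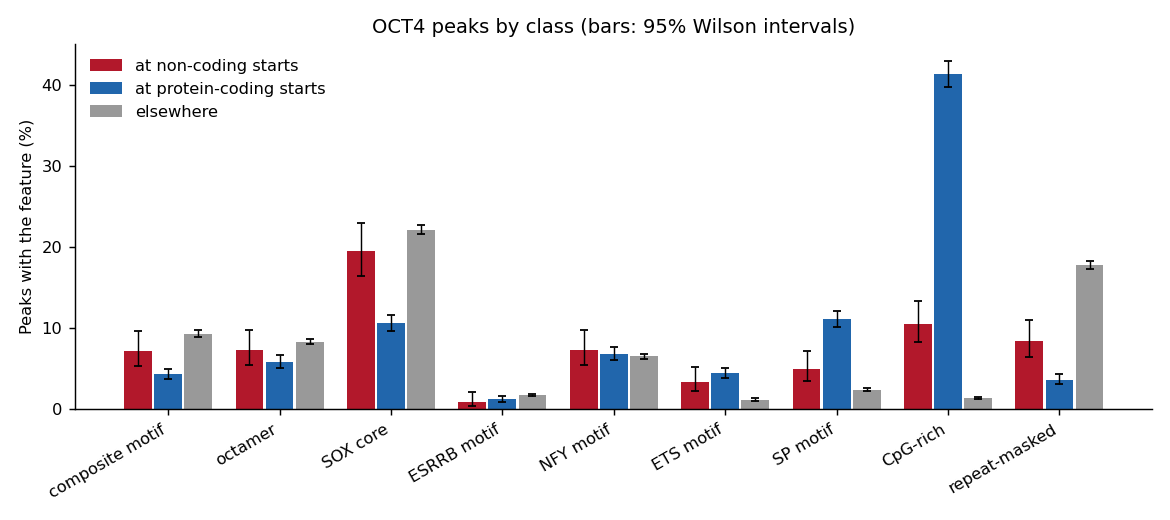
Share of peaks (%) with each feature at non-coding starts (559 peaks), at protein-coding starts (3674) and elsewhere (22471), with 95% Wilson intervals. The peaks at non-coding starts lie near the peaks elsewhere for the SOX core (19.5% and 22.1%) and between both classes for CpG-rich windows (10.6% against 41.3% and 1.39%).

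Repeats were more frequent at non-coding than at protein-coding starts and less frequent than elsewhere. More than 50% of the bases were repeat-masked in 47 peaks (8.41%, with 15.6% of all peaks), against 3.65% at protein-coding starts (odds ratio 2.43, 1.72 to 3.42, exact adjusted p = 1.29e-05) and 17.8% elsewhere (odds ratio 0.424, 0.314 to 0.573, exact adjusted p = 5.31e-09). Among miRNA peaks 12 of 49 were repeat-masked, and among lincRNA peaks 22 of 332. In 23 peaks (4.11%) more than 50% of the 31-base words were present elsewhere in the genome too, so that reads there could come from another copy. That share was 1.71% at protein-coding starts and 7.77% elsewhere. Of the 23, 6 were on chromosome 13, among them the peaks at Gm7762, Gm48170, Gm40987, Gm48222 and Gm40988 between positions 65348826 and 66681213, which were singled out after their values were seen. Chromosome 13 also held the most peaks at non-coding starts, 46 of its 1412 peaks (3.26%), whereas X held 7 of 646 (1.08%) and Y 0 of 14.

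Peaks at non-coding starts were more often wide than those at protein-coding starts. Their median width was 352 bp and the extremes were 203 and 3724 bp, with 8 peaks over 1 kb, against medians of 329 bp at protein-coding starts and 357 bp elsewhere. Peaks of at least 352 bp, the median of the whole list, made up 50.4% (with 50.3% of all peaks), against 44.1% at protein-coding starts (odds ratio 1.29, 1.08 to 1.54, exact adjusted p = 0.0126) and 51.3% elsewhere (odds ratio 0.968, 0.819 to 1.15, exact adjusted p = 0.769). The median width was 304.5 bp for antisense and 367.5 bp for lincRNA peaks.

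Another OCT4 peak lay within 10 kb of 213 of the 559 peaks (38.1%, with 33.9% of all peaks). The share was 32.8% at protein-coding starts (odds ratio 1.26, 1.05 to 1.52, exact adjusted p = 0.0307) and 34.0% elsewhere (odds ratio 1.19, 1.00 to 1.42, exact adjusted p = 0.0939). The first of these calls was lost with a limit of 5 kb (exact adjusted p = 0.277) or 50 kb (exact adjusted p = 0.898). For 57 peaks (10.2%) the next peak was within 1500 bp, a share that was not counted for all peaks or the other classes.

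The rule itself left out distances of up to 1 kb from a protein-coding start, as did the class of peaks elsewhere. The median distance to a protein-coding start was 25.9 kb, similar in size to the 24.8 kb of peaks elsewhere, and 185 peaks (33.1%) were more than 50 kb away. A protein-coding start lay within 5 kb of 105 peaks (18.8%). In 44 of these the non-coding and the protein-coding gene were divergent, in 23 they ran on the same strand, and in 38 they ran on opposite strands in another arrangement. The counts at 50 kb, at 5 kb and by strand were not made for all peaks or the other classes.

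Genes known from ES cells were described from lists that were chosen with earlier results of these data known. The shares of listed genes are therefore descriptions only, and no test was made. Of the 50 annotated genes on the pluripotency list, 16 had a peak of the set within 1 kb. Among the 41 listed genes whose starts were over 2 kb from protein-coding starts, 13 had one (31.7%), beside 5.22% of all such non-coding genes, and 3 of the 13 are miRNAs of the Mir302 cluster that share 1 peak. Platr genes, named as pluripotency-associated transcripts of ES cells, took the largest part. Of 28 annotated Platr genes, 8 had 10 peaks in all, 5 of them within 250 bp of the start and 8 of them upstream. None of the 10 was CpG-rich, the narrowest was 241 bp and the widest 626 bp (median 435 bp), and 6 were more than 50 kb from a protein-coding start. Repeat-masked bases made up 0 to 44.8% of each, with a median of 30.9%.

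Platr8 had the only Platr peak with a composite match, 626 bp wide at chr2:109913044-109913669 with its midpoint 38 bp upstream of the start and 4.29 kb from the start of Lgr4. Platr22 had a pair of peaks on chromosome 1, with midpoints 943 and 39 bp upstream of the start (chr1:136695086-136695450 and chr1:136695946-136696398). Platr19 likewise had a pair on chromosome 12, with midpoints 513 bp upstream and 672 bp downstream, 153 and 152 kb from the start of Mycn. The peaks of Platr9 (117 bp), Platr26 (218 bp), Platr11 (244 bp) and Platr6 (997 bp) lay upstream of the start, and that of Platr10 lay 390 bp downstream in an exon. Their composite matches had 4 mismatches or more.

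Rmst, an lncRNA known to bind SOX2 during neural differentiation, had one of the 3 matches with a single mismatch and had its peak 553 kb from a protein-coding start. The peak was 835 bp wide (chr10:92162989-92163823), with its midpoint 266 bp upstream of an Rmst start and the motif 11 bp from the midpoint. A neighbouring peak of 451 bp lay 1360 bp away (chr10:92161821-92162271), 57 bp upstream of Gm26700 and 118 bp from another Rmst start, and its best match had 4 mismatches. Both peaks were AT-rich, with 36.4% and 34.8% GC, the latter the lowest of the 559.

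Sox2ot, the lncRNA gene within which Sox2 lies, had 2 peaks on chromosome 3, 13.8 and 15.0 kb from the start of Sox2. The peak at chr3:34664142-34664359 was 992 bp upstream of a Sox2ot start, CpG-rich, 59.2% GC and without a composite match below 7 mismatches. The other, at chr3:34665262-34665499, was 138 bp downstream of that start in an exon and had 5 mismatches. Evx1os, an antisense RNA at the homeobox gene Evx1, had a peak of 250 bp whose midpoint was 19 bp upstream of its start and 1.30 kb from the start of Evx1 (chr6:52314726-52314975). The peaks of Sox2ot and Evx1os were thus narrow, between 218 and 250 bp, with 50.4% to 60.0% GC.

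**Figure D5:**
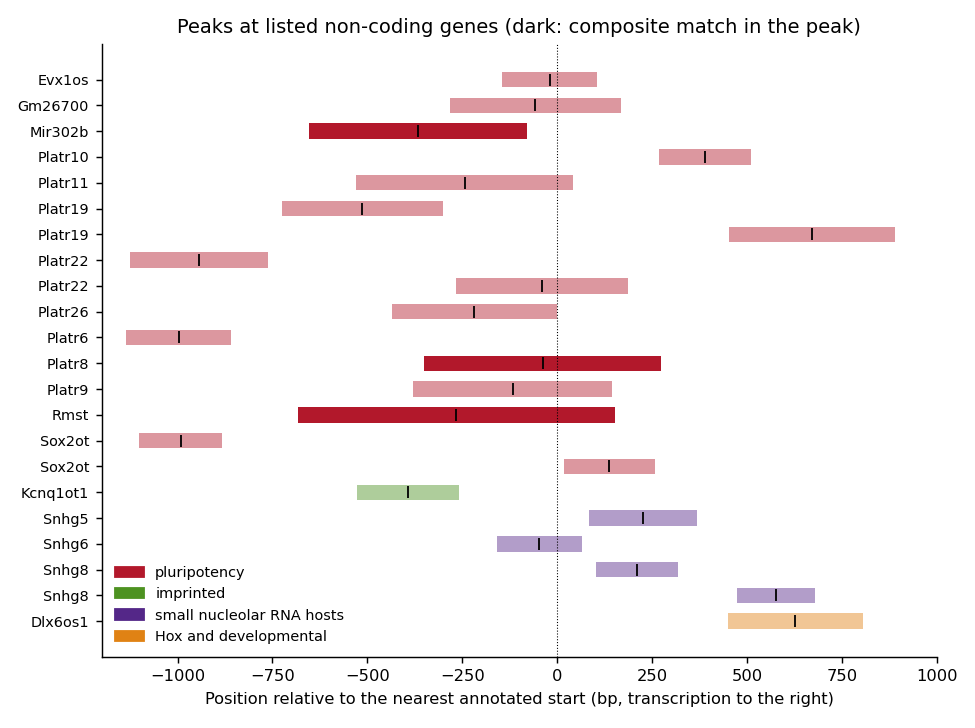
Extent of each peak at a listed non-coding gene relative to the nearest annotated start (bp, transcription to the right), with a tick at the midpoint and colours by list. Darker bars mark the 3 peaks with a composite match (Mir302b, Platr8 and Rmst), and the Evx1os peak also belongs to the Hox and developmental list.

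The remaining lists held fewer peaks. None of the 4 X inactivation genes found in the annotation had one, and the nearest peak was 3450 bp from a start of Ftx, 5317 bp from one of Xist, 6720 bp from one of Tsix and 20983 bp from one of Jpx. Of 9 imprinted genes, Kcnq1ot1, the antisense RNA of the Kcnq1 domain, had a peak of 269 bp with its midpoint 393 bp upstream of the start (chr7:143296808-143297076). Of 14 host genes of small nucleolar RNAs, which carry those RNAs in their introns, 3 had peaks. The midpoint at Snhg6 was 47 bp upstream of the start, that at Snhg5 was 227 bp downstream, and Snhg8 had a pair 211 and 577 bp downstream, 366 bp apart, which is the smallest gap to a next peak among the 559. Gas5, which is on this list and the pluripotency list, has a start 80 bp from a protein-coding start, so its peak, 256 bp away, did not belong to the set. Neither Malat1 nor Neat1, the RNAs of nuclear speckles and paraspeckles, had a peak within 1 kb, the nearest being 7117 and 1317 bp away. Besides Evx1os, 1 of 10 Hox and developmental genes had a peak, Dlx6os1, with a CpG-rich peak of 356 bp 627 bp downstream of its start and 2.37 kb from that of the homeobox gene Dlx6.

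Around the 31 listed pluripotency genes that code for proteins, 6 peaks of the set lay within 50 kb of a start, at 4 genes. Those of Sox2ot are given above. At Lefty1, an inhibitor of Nodal signalling, a peak lay 22.1 kb away, 805 bp upstream of the antisense gene 2210411M09Rik. The protein-coding gene nearest to that peak was Tmem63a, within which it lay, 1113 bp from a Tmem63a start. Mycn, a MYC-family factor, had peaks at the lincRNA genes Gm40271 (30.8 kb away) and Gm35208 (45.7 kb away). Near Tbx3, a T-box factor of naive ES cells, a peak lay 44.5 kb away at the lincRNA gene Gm16063. None of these 6 had a composite match with fewer than 4 mismatches.

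At miRNA genes, 49 peaks lay near 48 hairpins, 20 of them upstream, and 25 within a protein-coding gene. Only 5 peaks covered their hairpin and 9 overlapped it. RefSeq entries were found for 25 of the 49, and their 40 mature miRNAs outside chromosome 18 had 39 different seeds, the let-7g and let-7i 5p arms being the pair that shares 1. A composite match was present in 4 of the 49 peaks, those at Mir302b, Mir152, Mir3098 and Gm25595, which were named after their values were seen. In the Gm25595 peak 54.0% of the 31-base words were present elsewhere too.

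The peak at the Mir302 cluster, which is on the pluripotency list, was 575 bp wide (chr3:127544574-127545148) within the protein-coding gene Larp7. It lay upstream of all 5 hairpins, which follow each other on the same strand. Its midpoint was 367 bp from Mir302b, 502 bp from Mir302c, 635 bp from Mir302a, 763 bp from Mir302d and 872 bp from Mir367. The Mir290 cluster, also on the pluripotency list, had no peak within 1 kb, the nearest lying 2432 bp from Mir295.

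None of the 5 miRNA peaks nearest to the annotated start had a composite match with fewer than 5 mismatches. The peak nearest to a hairpin was that of Gm23935, 18 bp away (chr16:11143906-11144308), CpG-rich with 67.2% GC, but 93.6% of its 31-base words were present elsewhere too. Mir6387 followed at 75 bp and Mirlet7i at 154 bp. The Mirlet7i peak of 254 bp (chr10:122985443-122985696) was CpG-rich, had 69.7% GC and overlapped the hairpin of let-7i, a miRNA that rises on differentiation. Mir1983 (175 bp) and Mir5103 (179 bp) completed the 5, and the peak covered the hairpin at both, as at Mir6387 and Gm23935. Mirlet7g, which makes the miRNA with the same seed as let-7i, had a peak of 221 bp 756 bp downstream of its hairpin start.

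Of the 24 genes with more than 1 peak, D230017M19Rik had 3 and all others had 2, of which the 4 with a peak closest to a start are named. D230017M19Rik, a lincRNA gene with several starts on chromosome 1, had 3 peaks, at 72236722, 72244193 and 72265380, of which the first was CpG-rich and had 77.8% of its 31-base words elsewhere too. Gm5091 had peaks 109 and 22 bp upstream of different starts on chromosome 17, the first of them with 65.0% of its 31-base words elsewhere too, and AC167363.1 had peaks 24 and 241 bp upstream of its starts, 884 bp apart. At the lincRNA gene 9030622O22Rik both peaks were CpG-rich and 733 bp apart, and they lay 4.56 and 5.30 kb from the start of Foxa2, which encodes an endoderm factor. Platr22, described above, was the other gene named by this rule.

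The 2 widest peaks were GC-rich. Those at Gm26917 (3724 bp, chr17:39843107-39846830) and AY036118 (1679 bp, chr17:39847038-39848716) were neighbours on chromosome 17, both CpG-rich, with 67.7% and 60.1% GC. Of their 31-base words, 6.31% and 25.0% were also present elsewhere in the reference. Only copies placed on the reference chromosomes were counted, so reads from copies missing there would go unnoticed. Next came Gm49024 with 1309 bp on chromosome 14 (50.5% GC, not CpG-rich). At the other end, the 5 peaks whose midpoints were closest to a start were at 2310016D23Rik and Gm28548 (both at the start itself), A230001M10Rik (1 bp upstream), Gm35850 (5 bp downstream) and C330002G04Rik (7 bp upstream). Of these, A230001M10Rik and Gm35850 had composite matches with 2 mismatches.

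The peaks at the 1 kb limits of the rule are given for description. Gm47725 (1000 bp) and Gm48444 (999 bp) were the last inside the distance to a non-coding start, with composite matches of 5 and 4 mismatches. The imprinted Peg13 (1001 bp) and 1300014J16Rik (1003 bp) were the first outside, both with 4. For the distance to a protein-coding start, the peaks at Gm45564 (1008 bp from Plekha4) and Gm28192 (1009 bp from Csnk1d) were just inside, with 4 and 6 mismatches. The peaks at Sox6os (993 bp from Sox6) and 4921531C22Rik (970 bp from Taf4) were just left out, with 6 and 3.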

How the data were processed

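ChIP-seq for OCT4, BRG1 and H3K27ac was performed in 16 libraries (8 groups of 2 replicates). The only file used is the list of merged OCT4 peaks in 2TS22C, deposited by the authors as chromosome, start and end coordinates. By the study's methods and processing notes, reads were aligned to mm10 (GRCm38) with STAR 2.6.1c, duplicates were removed with Picard, peaks were called with MACS2 2.1.1.20160309 and peak files were merged with bedtools. Which OCT4 libraries entered the merge is not given in the sources used here. The methods describe removal of peaks over 5 kb, of Input peaks and of blacklisted regions, yet the list as deposited holds a peak of 38168 bp and is therefore not limited to 5 kb. Merging over libraries makes a peak wider, and regions bound in a single library count as much as others.

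Peaks were assigned by midpoint to starts of all GENCODE M21 transcripts. Motif letters were searched on both strands of the central 200 bp in the reference genome (GRCm38.p6). Repeat-masked bases are those in lower case there, and a peak was called multi-copy when over 50% of its 31-base words were present elsewhere too. Each difference of shares was tested by Fisher's exact test (two-sided), adjusted by the Benjamini-Hochberg method over 26 comparisons, and GC content was adjusted for by the Cochran-Mantel-Haenszel test over 10 strata. Intervals are 95% Wilson intervals for shares and 95% normal intervals of the log odds ratio, and cover counting error only. The rule, the motif search and the tests were tested on simulated data. Python 3.11.15, NumPy 2.4.6, SciPy 1.17.1, pandas 2.3.3, statsmodels 0.14.6, numba 0.67.0 and matplotlib 3.10.9 were used.

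The peaks described, the gene lists and the tests were chosen with earlier results of these data known. By rule the text names the peaks at listed genes, the 5 with the fewest mismatches to the composite motif (ties by distance of the match to the midpoint), the 5 genes with the most peaks (ties, for which the rule gave no order, by the smallest distance of a peak to a start), the 3 widest peaks, the 5 miRNA peaks and the 5 peaks nearest to a start, those within 50 kb of listed pluripotency genes and the 2 on each side of the limits.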

Additional observations from a re-analysis of the deposited data

How the results depend on the processing

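Of 94 values recomputed under alternatives, 77 kept their direction and their side of the threshold or stayed within 1.5 times the count. The number of peaks at non-coding starts was 367 within 500 bp of a start, 1067 within 2.5 kb and 355 among peaks of at least 300 bp. The lower composite share at protein-coding starts lost significance when whole peaks were searched (odds ratio 1.38), with at most 2 mismatches (1.89), with adjustment for GC content (1.35) and among peaks of at least 300 bp (1.65). The higher composite share elsewhere became significant when whole peaks were searched (0.643), with at most 4 mismatches (0.744) and without repeat-masked peaks (0.642). Against protein-coding starts, the share with a neighbouring peak was no longer significant at 5 kb (1.17) or 50 kb (1.03). Directions turned, without significance before or after, for the octamer against peaks elsewhere among peaks of at least 300 bp (1.10), for width against peaks elsewhere without repeat-masked peaks (1.01) and for ETS letters against protein-coding starts with adjustment for GC content (1.03). SP letters lost both calls with that adjustment (0.697 and 1.14). The alternatives without multi-copy peaks, and the GC adjustment of ETS and SP letters, were chosen after seeing the data. The cause of these changes was not tested.

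No paired analysis was possible because merged coordinates carry no replicate. The planned comparison of OCT4 binding in SOX2 OFF with SOX2 ON, with or without the replicate block, was not run for the same reason. Leaving out a replicate was not possible either. Peaks have no height or read count, so strong and weak sites carry the same weight.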
